A study of Mus musculus with 9 samples.

Results

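The cardiac myosin genes examined here are 9 listed genes of the sarcomeric motor and its kinase. They are the heavy chains *Myh6*, *Myh7* and *Myh7b*, the essential light chains *Myl1*, *Myl3* and *Myl4*, the regulatory light chains *Myl2* and *Myl7*, and the light-chain kinase gene *Mylk3*. They were listed by name, out of 24571 gene symbols. Of these, 13682 averaged 1 TPM or more and entered the tests. All 9 were among the tested genes. TPM expresses abundance per transcript length on a total that is equal in each library, so that levels may be compared between genes.

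Hearts of C57BL/6N mouse embryos were collected at E18.5, late in gestation. The wild-type hearts carried 2 normal *Ctcf* alleles, the heterozygous hearts (*Ctcf* +/R567W) carried 1 allele with the R567W substitution, and the homozygous hearts (*Ctcf* R567W/R567W) carried it on both. CRISPR/Cas9 had introduced the allele into the germ line, so that every cell of the embryo had it. RNA was captured by poly-A from whole hearts, with 3 libraries per genotype and each heart collected separately. *Ctcf* encodes a zinc-finger protein that organises chromatin loops. Its transcript ranged from 27.0 to 34.3 TPM in the wild-type group, from 33.2 to 38.7 TPM in the heterozygous group and from 38.9 to 50.2 TPM in the homozygous group. A substitution leaves the transcript in place, so that the level does not check the labels.

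A sarcomeric myosin molecule has a pair of heavy chains, each with a motor domain that hydrolyses ATP and pulls on actin. Each heavy chain binds an essential and a regulatory light chain at its lever arm, and phosphorylation of the regulatory light chain by *Mylk3* in cardiomyocytes enhances contraction. In the mouse heart, *Myh7* is the predominant heavy chain of the fetal ventricle and *Myh6* takes over around and after birth under thyroid hormone. *Myl4* and *Myl7* mark atrial muscle, although the fetal ventricle also contains some *Myl4*, whereas *Myl2* and *Myl3* mark ventricular muscle. *Myl1*, the essential light chain of fast skeletal muscle, is also present in the developing heart.

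The heavy-chain genes are also hosts of small RNAs. *Myh6* (chr14:54941921-54966927, minus strand, mm10) and *Myh7* (chr14:54970684-54994626, minus strand) lie side by side, and *Myh7b* lies at chr2:155611212-155634307 on the plus strand. Intron 29 of *Myh6*, intron 31 of *Myh7* and intron 19 of *Myh7b* each hold a microRNA, numbered along the host transcript. The mature sequences are shown because they tie the 3 hosts together. Capitals mark the seed, bases 2 to 8 from the 5′ end, and the sequences are from RefSeq (GRCm38.p6).
miR-208a-3p in *Myh6*: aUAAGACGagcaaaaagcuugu
miR-208b-3p in *Myh7*: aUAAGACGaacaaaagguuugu
miR-499-5p in *Myh7b*: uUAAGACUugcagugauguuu
The seed UAAGACG was shared by miR-208a-3p and miR-208b-3p, and that of miR-499-5p was UAAGACU. Levels of the microRNAs and of their hairpins were not analysed here.

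Across the 9 hearts the members summed to between 2.08% and 2.92% of all TPM. *Myl2* was the most abundant, ranking between the 8th and the 12th of all symbols, and its lowest library lay above the highest library of *Myl3*. *Myl3* in turn lay above the highest library of every other member. The ranges of *Myl7* (1566 to 3578 TPM), *Myh7* (1854 to 3109 TPM), *Myh6* (1444 to 3169 TPM) and *Myl4* (1048 to 2276 TPM) overlapped over the 9 hearts. Within a heart *Myl7* was above *Myl4* in all 9, the *Myl4*/*Myl7* ratio being 0.546 to 0.702. *Myl1* (154 to 352 TPM) and *Mylk3* (154 to 239.9 TPM) also overlapped, and *Myh7b* (86.0 to 129 TPM) lay below both. Light chains made up 77.5% to 85.5% of the summed level.

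**Figure D1:**
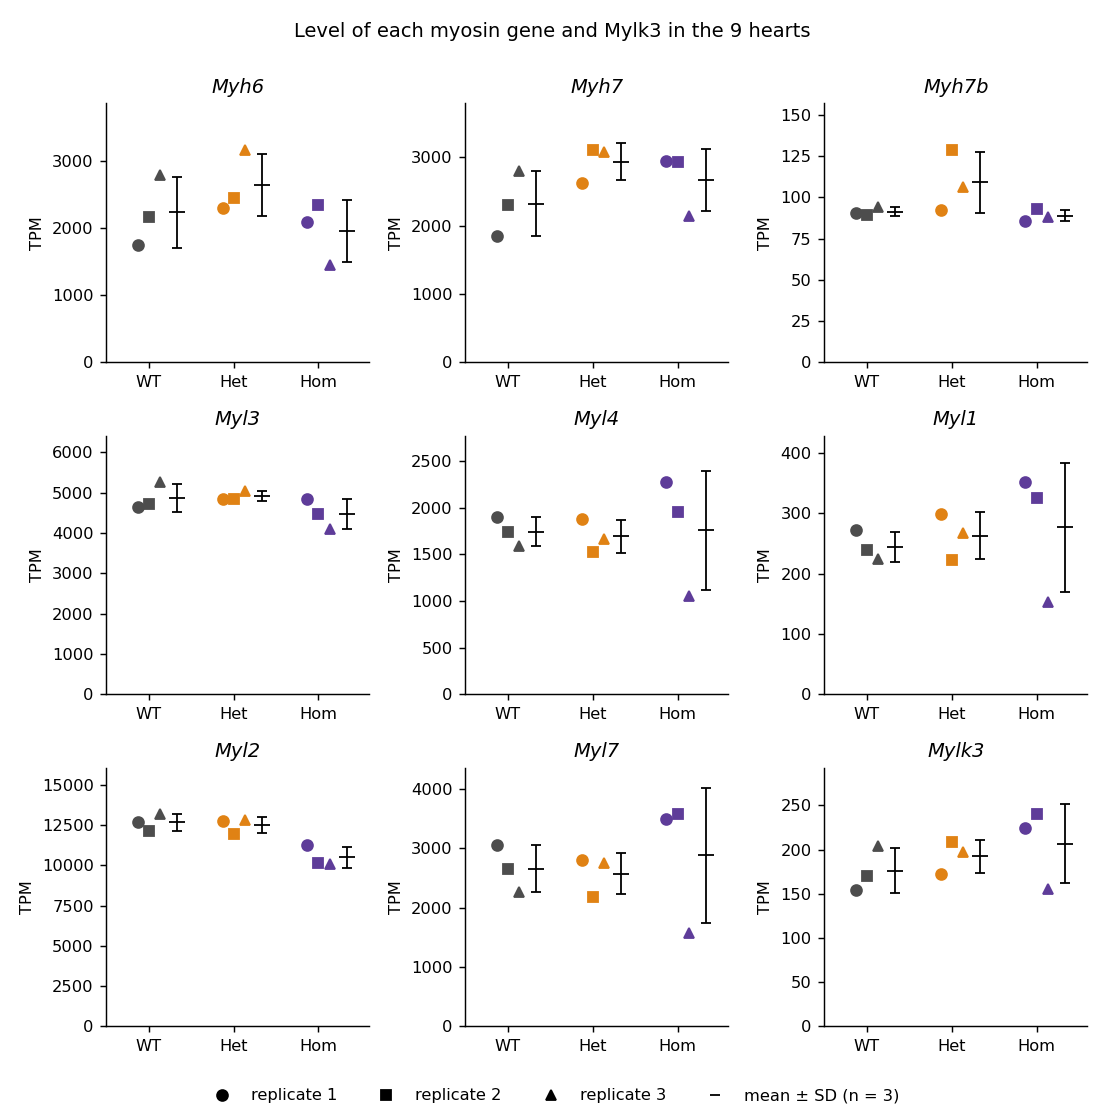
TPM (vertical axis, from 0) of the 9 genes in wild-type (WT), heterozygous (Het) and homozygous (Hom) hearts, with a symbol per library and the mean ± SD (n = 3) as a bar. Homozygous *Myl2* lies below both other groups, at 10099.97 to 11275 TPM, while *Myl1*, *Myl4* and *Myl7* spread widely within the homozygous group.

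The libraries were also read for transcripts of other cell types. The 6 cardiomyocyte markers summed to 16142 to 22436 TPM. Skeletal muscle markers without *Ckm*, which heart muscle expresses too, summed to 13.2 to 30.0 TPM over 13 genes. *Myh4* was listed at 0 in 8 libraries and at 0.06 TPM in homozygous replicate 3. The other sarcomeric myosin genes came to 0.0197% to 0.0540% of the members' level. Transcripts of other organs were uneven. Thymocyte genes (13, without *Satb1* and *Thy1*) summed to 594 TPM in homozygous replicate 3 and to at most 3.01 TPM elsewhere. Airway and lung genes (11, without *Hopx*) were highest in wild-type replicate 1, with 2622 TPM, followed by heterozygous replicate 1, with 1108 TPM. The latter library also led in liver genes (15), with 4207 TPM. Erythroid genes (10, chiefly globins) summed to 11909.99, 14606 and 2854 TPM in the wild-type group, 15547, 7724 and 5114 TPM in the heterozygous group and 4306 to 5150.1 TPM in the homozygous group. The female transcript *Xist* was present in 1 wild-type, 3 heterozygous and 1 homozygous library, so that the heterozygous group was not balanced for sex.

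Homozygous against wild-type hearts was the comparison of the mutant allele in both copies with none. Of 13682 tested genes, 46 (0.336%) were called by limma at an adjusted p under 0.05, and 0 of the 9 members were among them. At an unadjusted p under 0.05 there was 1 member, *Myl2*, among 3426 tested genes. The median log2 change of all tested genes was 0.23 and that of the members was -0.04. All 9 members lay below the median of all genes, 4 of them with a positive change. However, 5 lay above it after quantile normalization and 3 with arrayWeights, limma's down-weighting of deviating libraries. The position also depended on single libraries, as 5 lay above the median without homozygous replicate 3. It was 4 without the 3 libraries richest in other organs' transcripts, 2 without wild-type replicate 3 and at most 2 in the other alternatives. The groups did not overlap for 1 member, *Myl2*, which was lower, against 326 of all tested genes (2.38%) that were lower without overlap. No member was higher without overlap, against 3053 tested genes (22.3%).

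Among the regulatory light chains, *Myl2* (chr5:122100951-122113472, plus strand) had wild-type levels of 12729, 12155 and 13187 TPM. The heterozygous levels were 12782, 11942 and 12817 TPM, and the homozygous levels 11275, 10147 and 10099.97 TPM. Each homozygous heart was below every wild-type and heterozygous heart, while the heterozygous and wild-type values were interleaved. The means were 12691 ± 517, 12514 ± 496 and 10507 ± 665 TPM (SD, n = 3 each). The homozygous mean was 17.2% below the wild-type mean. On the log2(TPM + 1) scale the change was -0.27 (SE 0.08, 95% interval -0.44 to -0.10), with a limma adjusted p of 0.111. Relative to the median of all genes, which is not matched for transcript length, it was -0.51. *Myl2* was thus lower in 3 of 3 homozygous hearts but did not pass the threshold over all genes.

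The direction of the *Myl2* change held in 21 of 21 alternative settings, with log2 changes of -0.52 to -0.13 and adjusted p-values of 0.043 to 0.507. It passed the threshold in 2 of them, without mitochondrially encoded and haemoglobin genes (-0.33) and with arrayWeights (-0.20), a setting that called 5068 of the 13682 genes. Without the 3 libraries richest in other organs' transcripts, the change was -0.24 with an adjusted p of 0.271. As measured beside it, 10 ventricular markers had wild-type sums of 2689, 2753 and 2958 TPM, heterozygous sums of 2642, 2997 and 2806 TPM and homozygous sums of 2675, 2682 and 2095 TPM. The ventricular list was divided. *Kcne1*, a potassium channel subunit, and *Nppb*, a natriuretic peptide, were lower in homozygous than in wild-type hearts without overlap (-0.63 and -1.64), whereas *Pln*, the calcium pump inhibitor with the highest level on the list, had a change of 0.19 and *Hey2* of 0.47 (adjusted p 0.0814, 0.0882, 0.380 and 0.201, limma). The 6 cardiomyocyte markers ranged from 19461 to 21649 TPM in the wild-type and from 16142 to 21566 TPM in the homozygous group. Their part in the *Myl2* difference was not tested. In whole-heart RNA, fewer cells of a type and less RNA per cell cannot be told apart.

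*Myl7*, the atrial regulatory light chain (chr11:5896637-5898782, minus strand), had wild-type levels of 3065, 2649 and 2268 TPM. The heterozygous levels were 2802, 2179.9 and 2748 TPM, and the homozygous levels 3500.36, 3578 and 1566 TPM. Homozygous replicates 1 and 2 were the 2 highest of all libraries and replicate 3 was the lowest, so that the homozygous group spanned both others. The homozygous mean was 2881 ± 1139.9 TPM against 2661 ± 398 TPM in wild type (SD, n = 3 each). The log2 change was 0.03 (SE 0.27, adjusted p 0.952, limma). Without homozygous replicate 3 it was 0.42 with an adjusted p of 0.107.

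Among the essential light chains, *Myl3* (chr9:110741861-110769798, plus strand), the ventricular form, varied least, with a coefficient of variation of 6.98% over the 9 libraries. The wild-type hearts had 4639, 4710.2 and 5261 TPM, the heterozygous hearts 4837, 4847 and 5049.5 TPM, and the homozygous hearts 4831, 4477 and 4105 TPM. Homozygous values lay below all heterozygous ones, replicate 1 only just, but overlapped with wild type. The change against wild type was -0.12 (SE 0.09, adjusted p 0.362, limma), and it turned to 0.12 after quantile normalization.

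*Myl4*, the atrial and fetal form (chr11:104550663-104595753, plus strand), had wild-type levels of 1904, 1738 and 1592 TPM. The heterozygous levels were 1884, 1530.4 and 1662 TPM, and the homozygous levels 2276, 1955 and 1048 TPM. *Myl1* (chr1:66924295-66945404, minus strand) had wild-type levels of 272, 239 and 224 TPM, heterozygous levels of 299.5, 222 and 268 TPM and homozygous levels of 352, 325 and 154 TPM. In both genes, as in *Myl7*, homozygous replicates 1 and 2 were the 2 highest libraries and replicate 3 the lowest. The log2 changes against wild type were -0.06 for *Myl4* and 0.09 for *Myl1*, with adjusted p-values of 0.886 and 0.839 (limma). Without homozygous replicate 3 they were 0.28 and 0.47, with adjusted p-values of 0.144 and 0.0842.

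**Figure D2:**
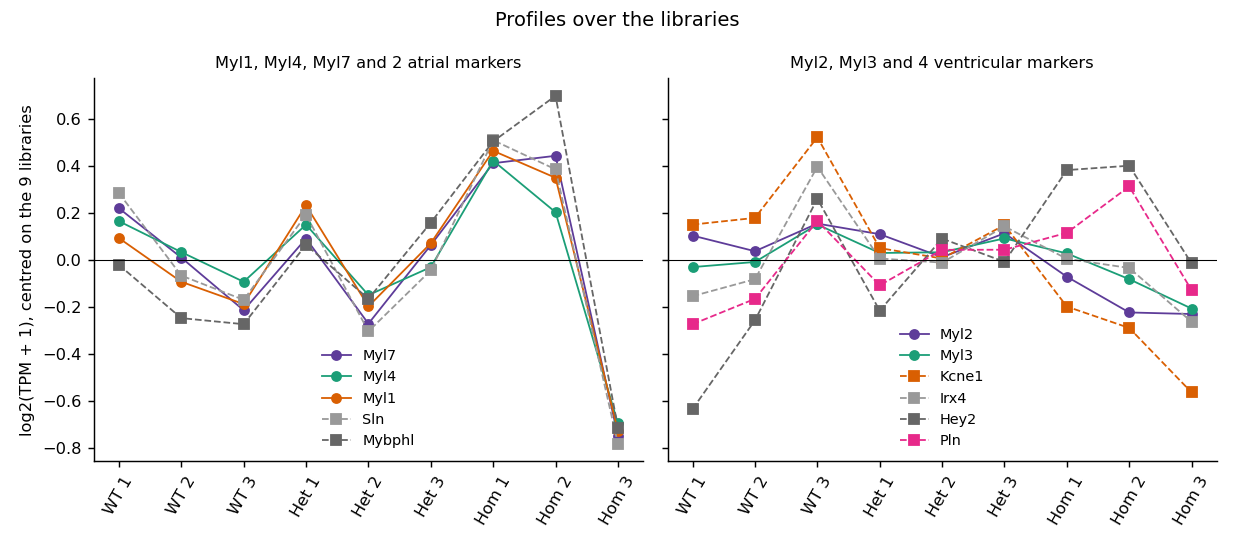
Log2(TPM + 1) of each gene minus its mean over the 9 libraries (vertical axis), by library (horizontal axis). At left, *Myl1*, *Myl4* and *Myl7* (solid) and the atrial markers *Sln* and *Mybphl* (dashed) are all at their lowest in homozygous replicate 3; at right, *Myl2* and *Myl3* (solid) stand beside 4 of the 10 ventricular markers (dashed), namely *Kcne1* and *Irx4*, the closest to *Myl2* (r 0.91) and *Myl3* (r 0.88), and *Hey2* and *Pln*, the farthest from *Myl2* (r -0.44 and -0.30). The atrial markers shown are only a part of their list of 10, and all markers were picked for display after their values were seen.

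*Myl1*, *Myl4* and *Myl7* followed each other from library to library. Over the 9 libraries, which share the scaling to a common total, Pearson's r was 0.97 for *Myl1* with *Myl4*, 0.97 for *Myl1* with *Myl7* and 0.96 for *Myl4* with *Myl7*, and Spearman's rho was 0.97 for each pair. Leaving out the 2 libraries farthest from the median of the first gene, r was 0.88, 0.91 and 0.92. For the atrial and ventricular forms of 1 chain, r was 0.45 for *Myl3* with *Myl4* and 0.11 for *Myl2* with *Myl7*, and -0.33 and -0.41 without the 2 farthest libraries. Among 9943 genes averaging 5 TPM or more, *Sln*, the atrial regulator of the calcium pump, was the closest to each of the 3 genes, with r of 0.98 for *Myl1*, *Myl4* and *Myl7*. *Dynlrb1*, a dynein light chain, was next for *Myl1* (0.97) and *Myl4* (0.96), and *Bmp6*, a secreted growth factor, for *Myl7* (0.97). These r values describe the libraries and were the highest of many.

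*Sln* had wild-type levels of 544, 426 and 397 TPM, heterozygous levels of 510.02, 361 and 433 TPM and homozygous levels of 636, 583 and 259 TPM. The order of the homozygous libraries was therefore that of *Myl1* and *Myl4*. The whole list of 10 atrial markers, most of whose sum is the natriuretic peptide gene *Nppa*, had wild-type sums of 5606, 4994 and 4890.07 TPM. The heterozygous sums were 5294, 6301 and 5602 TPM, and the homozygous sums 6280.24, 4863 and 2477 TPM. Of the 10 markers, 6 were lowest in homozygous replicate 3 and 7 were highest in homozygous replicate 1 or 2. The atrial list was divided as well. *Gja5* was higher in homozygous than in wild-type hearts without overlap (0.97, adjusted p 0.0961, limma), as were 22.3% of all tested genes. Its r was 0.36 with *Myl1*, 0.18 with *Myl4* and 0.29 with *Myl7*. *Kcnj3* changed by 0.75 with overlapping groups. Only *Nppa* (-0.369) and *Bmp10* (-0.565) had negative changes. None of the 10 was at 0 in any library. How far this accounts for the spread of *Myl1*, *Myl4* and *Myl7* was not tested.

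The start regions of *Myl7* and *Myl4* are shown as examples from the genes that moved together, which included *Myl1*. They are the 120 bases before the RefSeq start (GRCm38.p6), read 5′ to 3′ along the gene.
Myl7 (chr11:5898783-5898902, minus strand): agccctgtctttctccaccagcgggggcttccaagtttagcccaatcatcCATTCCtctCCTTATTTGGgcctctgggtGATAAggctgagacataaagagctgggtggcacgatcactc
Myl4 (chr11:104550543-104550662, plus strand): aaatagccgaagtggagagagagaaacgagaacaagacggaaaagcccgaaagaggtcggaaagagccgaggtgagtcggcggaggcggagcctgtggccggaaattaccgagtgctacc
Capitals mark matches to motifs searched on both strands, namely the GATA-factor motif GATAA, the TEAD motif GGAATG, the E-box CANNTG, the CArG box of serum response factor and the MEF2 site. *Myl7* held GATAA 41 bases before its start, a CArG box 61 bases before and GGAATG, on the opposite strand, 70 bases before. Of 32851 promoter windows of this length, 10.5% held GATAA, 0.7% a CArG box, 5.8% GGAATG, 40.2% CANNTG and 1.3% a MEF2 site, the motifs not overlapping in *Myl7*. The *Myl4* window held none of the 5 sequences. It precedes the most upstream annotated start of a gene with 8 annotated transcripts, and whether heart transcripts begin there was not tested. The *Myl1* window, not shown, held GGAATG only. That of *Myl3*, whose r with *Myl7* was 0.30, held both GATAA and a CArG box. Whether these motifs go with shared movement was not tested. A match is a description of the letters and not evidence of a bound site.

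Among the heavy chains, *Myh6* had wild-type levels of 1747, 2168 and 2794 TPM, heterozygous levels of 2308, 2451 and 3169 TPM and homozygous levels of 2088, 2350.01 and 1444 TPM. For *Myh7* the wild-type hearts had 1854, 2309.98 and 2806 TPM, the heterozygous hearts 2624, 3109 and 3087 TPM, and the homozygous hearts 2948, 2927 and 2145 TPM. The groups overlapped for both genes, and wild-type replicate 1 was low for each. The log2 changes of homozygous against wild-type hearts were -0.19 for *Myh6* (SE 0.21, adjusted p 0.556) and 0.21 for *Myh7* (SE 0.17, adjusted p 0.422; both limma). *Myh6* was at 0.01 without homozygous replicate 3, and *Myh7* at -0.03 after median-ratio scaling.

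The balance of the 2 heavy chains separated homozygous from wild-type hearts where their levels did not. The ratio of *Myh6* to *Myh7* was 0.943, 0.939 and 0.996 in wild-type hearts. It was 0.880, 0.788 and 1.03 in heterozygous hearts, and 0.708, 0.803 and 0.673 in homozygous hearts. Each homozygous heart had a lower ratio than every wild-type heart. The heterozygous range overlapped with both groups, while homozygous replicates 1 and 3 lay below every heterozygous heart. *Myh6* thus made up 47.96% ± 0.967 of the heavy-chain level in wild-type, 46.3% ± 3.37 in heterozygous and 41.3% ± 2.29 in homozygous hearts (SD, n = 3 each). The mean log2 ratio differed by -0.40 (SE 0.08) between homozygous and wild-type hearts, and the two-sided permutation test, which was exact, gave p = 0.1. That is the smallest p this test can give with 3 against 3 libraries. Of the 21 ratio tests (7 ratios in 3 comparisons), only 1, this one, reached p = 0.1 by exact permutation. After adjustment over the 21 tests, p was 0.84. No ratio could therefore pass 0.05 by this test. Among levels of single genes, 22.3% of all tested genes were higher and 2.38% lower in homozygous hearts without overlap. These shares are of levels, and how often a ratio of 2 genes separates the groups was not counted.

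The ratio difference lay between -0.47 and -0.35 when any library was left out, and was -0.36 without the 3 libraries richest in other organs' transcripts. A ratio within a library does not depend on how the library was scaled. *Myh6* and *Myh7* do, however, share sequence, as 29.1% of the 31-base words of *Myh6* transcripts also occur in *Myh7* and 22.6% of those of *Myh7* in *Myh6*. The counting tool divides such reads by estimation, so that the division between the 2 genes is uncertain. In whole-heart RNA, a shift between the 2 chains within cells and a different mix of cells cannot be told apart. Against heterozygous hearts the homozygous ratio differed by -0.30 (SE 0.13, exact permutation p 0.2, adjusted p 0.84).

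**Figure D3:**
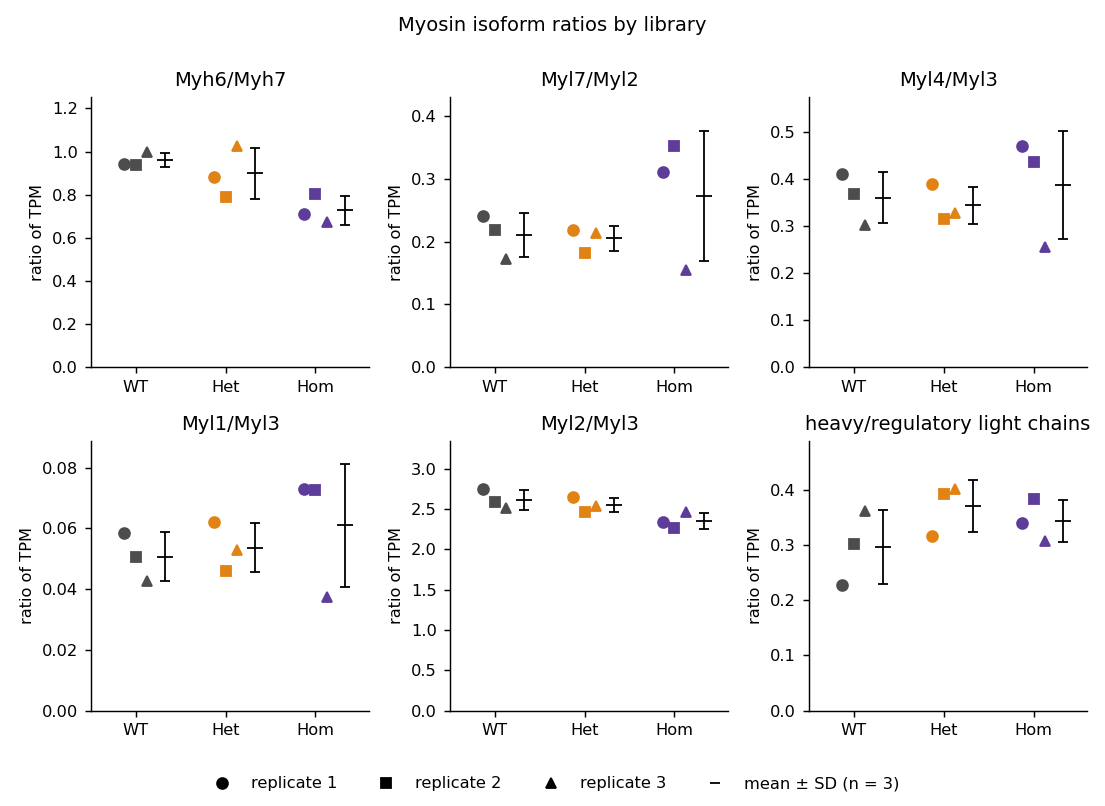
Ratios of TPM (vertical axis, from 0) within each library, by genotype, with a symbol per library and the mean ± SD (n = 3). The 3 homozygous *Myh6*/*Myh7* ratios, 0.673 to 0.803, lie below the 3 wild-type ratios, 0.939 to 0.996, while *Myl7*/*Myl2*, *Myl4*/*Myl3* and *Myl1*/*Myl3* spread widely in homozygous hearts.

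The atrial to ventricular ratios did not separate the genotypes. *Myl7*/*Myl2* was 0.241, 0.218 and 0.172 in wild-type, 0.219, 0.183 and 0.214 in heterozygous and 0.310, 0.353 and 0.155 in homozygous hearts. Homozygous replicates 1 and 2 had the highest ratios and replicate 3 the lowest. The log2 difference was 0.30 (SE 0.40, exact permutation p 0.5, adjusted p 0.875), and 0.67 without homozygous replicate 3. *Myl7* made up 17.3% ± 2.42 of the regulatory light chains in wild-type and 21.1% ± 6.72 in homozygous hearts (SD, n = 3 each). *Myl4*/*Myl3*, the atrial and fetal against the ventricular essential chain, was 0.410, 0.369 and 0.303 in wild-type and 0.471, 0.437 and 0.255 in homozygous hearts, a log2 difference of 0.07 (SE 0.31, exact permutation p 0.9). *Myl1*/*Myl3* differed by 0.22 (SE 0.35, exact permutation p 0.6).

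The 2 main ventricular light chains did not keep a constant ratio. *Myl2*/*Myl3*, a ratio picked after its values were seen and therefore not tested, was 2.74, 2.58 and 2.51 in wild-type, 2.64, 2.46 and 2.54 in heterozygous and 2.33, 2.27 and 2.46 in homozygous hearts. All 3 homozygous values were lower than every other, heterozygous replicate 2 being the nearest. The ratio of all essential to all regulatory light chains was 0.432 to 0.458 in wild-type and 0.455 to 0.505 in homozygous hearts, a log2 difference of 0.11 (SE 0.05, exact permutation p 0.2).

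*Myh7b*, a slow-type heavy chain at a low level in heart, had wild-type levels of 90.4, 89.1 and 94.4 TPM, heterozygous levels of 92.1, 129 and 106 TPM and homozygous levels of 86.0, 92.7 and 88.0 TPM. Only heterozygous replicates 2 and 3 exceeded 94.4 TPM. The homozygous change against wild type was -0.04 (SE 0.12, adjusted p 0.857, limma). The *Myh7b*/*Myh7* ratio differed by -0.25 (SE 0.22, exact permutation p 0.4).

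*Mylk3*, the cardiac light-chain kinase (chr8:85324303-85386345, minus strand), had wild-type levels of 154, 170.3 and 204 TPM. The heterozygous levels were 172, 208 and 198 TPM, and the homozygous levels 224, 239.9 and 155 TPM. The homozygous group held the 2 highest libraries, replicate 3 being close to the lowest wild-type heart. The log2 change was 0.21 (SE 0.17, adjusted p 0.424, limma), 0.02 below the median of all genes. It was 0.40 without homozygous replicate 3, and -0.03 after median-ratio scaling.

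*Mhrt*, a long non-coding RNA on the strand opposite to *Myh7* (chr14:54968678-54974349), has been described as a regulator of heavy-chain expression. The wild-type hearts had 9.35, 8.98 and 16.8 TPM, the heterozygous hearts 15.9, 16.7 and 15.9 TPM, and the homozygous hearts 14.8, 8.80 and 12.5 TPM. The levels overlapped between homozygous and wild-type hearts, and *Mhrt* was 0.301% to 0.607% of *Myh7*. Whether strand was used in the counting is not given in the sources used here, so that reads of *Mhrt* and of the overlapping part of *Myh7* cannot be told apart.

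**Figure D4:**
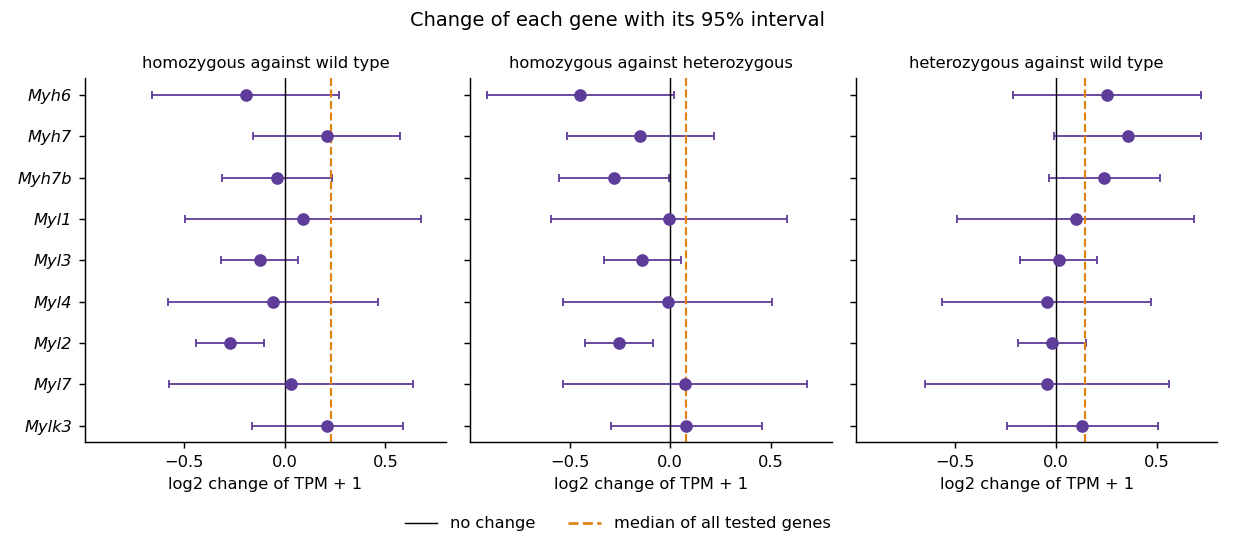
Log2 change of TPM + 1 (horizontal axis) of each gene with its 95% limma interval, in the 3 comparisons. Solid lines mark 0 and dashed lines the median of all tested genes (0.23, 0.08 and 0.15 from left to right); the *Myl2* interval of homozygous against wild type, -0.44 to -0.10, lies wholly below 0.

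In homozygous against heterozygous hearts, the comparison of both mutant copies with 1, 6 of the 13682 genes were called (0.0439%) and 0 of the 9 members. At an unadjusted p under 0.05 there were 2 members, *Myl2* and *Myh7b*, among 978 tested genes. The groups did not overlap for 2 members, both lower, against 527 tested genes lower without overlap (3.85%). These were *Myl2*, with a log2 change of -0.25 (SE 0.08, adjusted p 0.563), and *Myl3*, with -0.14 (SE 0.09, adjusted p 0.776; both limma). *Myh7b* changed by -0.28 (SE 0.12, adjusted p 0.698) and *Myh6* by -0.45 (SE 0.21, adjusted p 0.718), both with overlapping groups. The median of all genes was 0.08 and that of the members -0.14.

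In heterozygous against wild-type hearts, 2 genes were called (0.0146%) and 0 of the 9 members, and no member had an unadjusted p under 0.05 (940 tested genes did). The groups overlapped for all 9 members, against 1889 tested genes (13.8%) without overlap in either direction. *Myh7* had the highest change, 0.36 (SE 0.17, adjusted p 0.672, limma), and *Myh6* and *Myh7b* were at 0.25 and 0.24. The light chains lay between -0.05 and 0.10, with *Myl2* at -0.02 (95% interval -0.19 to 0.15). This comparison and that of homozygous with wild-type hearts use the same wild-type libraries.

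The long heavy-chain and the short light-chain transcripts moved apart between libraries of 1 genotype. The ratio of heavy chains (*Myh6* and *Myh7*) to regulatory light chains was 0.228, 0.303 and 0.362 in wild-type, 0.316, 0.394 and 0.402 in heterozygous and 0.341, 0.385 and 0.308 in homozygous hearts. Wild-type replicate 1 was the lowest of all, and the 3 groups overlapped. The log2 difference from wild type was 0.23 in homozygous hearts (SE 0.22, exact permutation p 0.4) and 0.33 in heterozygous hearts (SE 0.22, exact permutation p 0.2).

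Transcript length moved with this ratio over all genes. The longest annotated transcripts have 6113 bases for *Myh6* and 6230 bases for *Myh7*, but 889 for *Myl2* and 590 for *Myl7*. The median centred log2 value of the 1329 tested genes longer than 6713 bases, minus that of the 1329 shorter than 1183 bases, was -0.43, -0.10 and 0.06 in wild-type libraries. It was -0.04, 0.09 and 0.14 in heterozygous and 0.18, 0.21 and -0.01 in homozygous libraries. Wild-type replicate 1 was thus the lowest on this measure as well. The shortest genes alone had medians of 0.005, -0.118 and -0.008 in wild-type and 0.019, 0.046 and -0.03 in homozygous libraries. For all genes with a length these were -0.233, -0.18 and 0.04, and 0.134, 0.167 and -0.024. The part of length in the heavy to light chain ratio, or in the members' position against the median of all genes, was not tested.

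**Figure D5:**
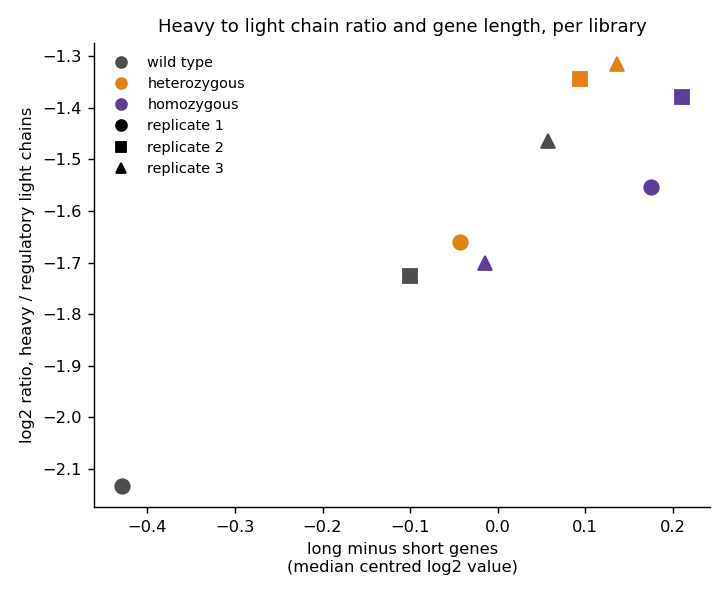
Each point is a library, coloured by genotype and shaped by replicate number. The horizontal axis is the median centred log2 value of the 1329 longest of the tested genes minus that of the 1329 shortest, the vertical axis the log2 ratio of heavy (*Myh6*, *Myh7*) to regulatory light chains (*Myl2*, *Myl7*), and wild-type replicate 1 lies at the lower left, at -0.43 and -2.13.

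The remaining members also had close followers among the 9943 genes searched, each given as a description over the 9 libraries. *Myh6* was nearest to *Filip1*, which encodes a filamin-binding protein (r 0.99), and to *Uqcrc1* of respiratory complex III (0.98). *Myh7* was nearest to *Tln2*, a talin (0.99), and *Pdzd2* (0.98). *Myl2* was nearest to *Mrpl42*, a mitochondrial ribosomal protein gene, and *Ndufs6* of complex I (0.97 each), and *Myl3* to *Mrpl12*, of the mitochondrial ribosome (0.98), and *Lclat1* (0.97). *Mylk3* was nearest to *Cttnbp2nl* (0.99) and *Tmem164* (0.98), and *Myh7b* to *Gm13342* (0.93) and *Gm12338* (0.88).

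Genes working with these myosins were read from 5 lists, and 0 of them was called in any of the 3 comparisons. Among the 8 non-muscle and smooth-muscle myosin genes, all tested, the median log2 change of homozygous against wild-type hearts was -0.01. Without overlap, 1 gene was higher and 2 were lower, against 22.3% and 2.38% of all tested genes. The lower genes were *Myl9* and *Myl12a* (-0.35, adjusted p 0.126, limma). *Myl9*, the smooth-muscle regulatory light chain and one of the genes named by the study on these samples, had wild-type levels of 939.98, 913 and 864 TPM and homozygous levels of 762, 537 and 465 TPM (log2 change -0.65, SE 0.16, adjusted p 0.0983, limma). The study listed *Myl9* as downregulated by DESeq2 on counts, with its own limits on fold change and adjusted p, whereas it was not called here. The 6 smooth-muscle markers, *Myl9* among them, had wild-type sums of 1546 to 1581 TPM and homozygous sums of 878 to 1308 TPM. *Myl12b*, a non-muscle regulatory light chain, was at 42.2 to 51.4 TPM and 57.8 to 65.6 TPM (0.37, adjusted p 0.135, limma).

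Of 11 light-chain kinase and phosphatase genes 10 were tested, with a median change of 0.09. *Mylk*, the smooth-muscle kinase, had wild-type levels of 3.56 to 5.02 TPM and homozygous levels of 5.81 to 7.47 TPM (0.52, adjusted p 0.131), and *Ppp1r14a*, an inhibitor of the phosphatase, at 9.84 to 11.1 TPM and 5.28 to 10.5 TPM (-0.33, adjusted p 0.378, both limma). Of 18 genes for thick-filament partners and myosin chaperones 15 were tested, with a median of 0.08. *Unc45a*, which encodes a chaperone of myosin folding, had wild-type levels of 14.1, 12.1 and 10.8 TPM. The heterozygous levels were 18.3, 25.2 and 22.7 TPM, and the homozygous levels 17.6, 20.2 and 16.6 TPM. Every heterozygous and homozygous heart was above every wild-type heart, with changes of 0.79 (adjusted p 0.549) and 0.52 (adjusted p 0.115, both limma). Of the 13682 tested genes, 1748 and 3053 were higher without overlap in these comparisons. *Trim54*, a ubiquitin ligase of striated muscle, had wild-type levels of 6.93 to 8.01 TPM and homozygous levels of 3.07 to 7.77 TPM (-0.48, adjusted p 0.238, limma).

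Of 21 regulators of myosin isoform genes 20 were tested, with a median change of 0.23, the same as that of all tested genes to 2 decimals, and a range of -0.16 to 0.49. *Prdm16* and *Hey2*, transcriptional regulators of ventricular muscle, had changes of 0.49 and 0.47 with overlapping groups (adjusted p 0.255 and 0.201, limma). Of the 11 genes listed as other sarcomeric myosins 3 were tested, none reaching a mean of 5 TPM. *Myh8* and *Mylpf*, of skeletal muscle, had changes of 0.38 and -0.23, and *Myh14*, in fact a non-muscle heavy chain, of -0.89 (adjusted p 0.420, 0.683 and 0.325, limma).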

How the data were processed

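The submitters' processing notes and the study's methods name Trim Galore, STAR, RSEM and the mm10 build. The authors' RSEM step gave estimated expression, and the deposited table holds TPM per symbol and library (totals 999100 to 999245). TPM keeps no read depth, so that counting error is unknown and the spread between 3 libraries is the only measure of precision. Annotation release and strand are not given in the sources used here. Of 24597 symbols, 26 that had become dates (at most 0.0921% of TPM) were left out.

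Values were analysed as log2(TPM + 1), a scale that understates changes of low genes, keeping genes that averaged 1 TPM or more. limma (v3.58.1, R v4.3.3) with a mean-variance trend was fitted to all 9 libraries by genotype, without covariates. Tests were two-sided with Benjamini-Hochberg adjustment within a comparison, and the threshold was an adjusted p under 0.05. The fit was tested on simulated data. Per-library ratios of isoforms, computed from TPM (tests used TPM + 1), were compared by exact two-sided permutation (scipy v1.17.1).

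The members, lists and ratios were chosen with earlier results of these data known. All 9 members and *Ctcf* were named. In each list, the named genes were those called and the 2 with a mean of at least 5 TPM and the largest absolute change of homozygous against wild type, and for each member the 2 most correlated genes. Genes named beyond this rule (*Mhrt*, *Nppa*, *Xist*, *Ckm*, *Satb1*, *Thy1*, *Hopx*, *Mybphl*, *Gja5*, *Kcnj3*, *Bmp10*, *Kcne1*, *Irx4*, *Pln*, *Nppb*, *Myh4*, *Myh8*, *Myh14*, *Mylpf* and *Myl12a*) were chosen after their values were seen. Coordinates came from GENCODE M21 (mm10). Alternatives were pseudocounts of 0.1 and 5, other filters and scalings, arrayWeights, sex as a covariate, a replicate block, fits of 2 groups and the omission of libraries.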

Additional observations from a re-analysis of the deposited data

How the results depend on the processing

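Of the 9 members, 0 were called in each comparison, and this held in all 21 alternatives but 2, both for homozygous against wild type. It was 1 (*Myl2*, -0.33) without mitochondrially encoded and haemoglobin genes and 3 with arrayWeights (*Myh7* 0.37, *Myl2* -0.20 and *Mylk3* 0.40). The cause was not tested. Only the *Myl2* decrease and the *Myh7b* difference kept their direction in every alternative of homozygous against wild type, the 7 other members turning in at least 1.

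Genes called in homozygous against wild type numbered 46 and came to 22 without a filter on low values, 229 after median-ratio scaling (18.3% of them higher, against 56.5%), 71 after quantile normalization (16.9% higher), 77 without mitochondrially encoded and haemoglobin genes, 5068 with arrayWeights (94.9% higher) and 11 when only the 2 groups compared were fitted. In homozygous against heterozygous, the 6 calls came to 2 with a pseudocount of 5, 2 without a filter, 15 after median-ratio scaling, 11 after quantile normalization, 10 without mitochondrially encoded and haemoglobin genes, 43 with arrayWeights (39.5% higher, against 16.7%), 0 with sex as a covariate and 0 with 2 groups. At an unadjusted p under 0.05 the sex covariate left 469 genes. In heterozygous against wild type, the 2 calls came to 1 with a pseudocount of 0.1, 1 under the stricter filter of 5 TPM, 5 after median-ratio scaling, 4 after quantile normalization, 4 with arrayWeights, 1 with sex as a covariate and 0 with 2 groups.

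Replicate numbers are shared between genotypes, but nothing in the labels ties them to a litter or day. Of 9 same-numbered pairs, 2 had deviations correlated above 0.1 (-0.03 to 0.36 over all). Both paired wild-type with heterozygous libraries, at 0.359 for replicate 1 and 0.297 for replicate 3. In that comparison, replicate 1 of either genotype with replicate 3 of the other was at -0.314 and -0.311. With a replicate block, genes called were 17, 1 and 1 in the 3 comparisons and 0 members were called.

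Uncalled members that changed sign in homozygous against wild type were, after median-ratio scaling, *Myh7* (-0.035), *Myl1* (-0.15), *Myl7* (-0.212) and *Mylk3* (-0.03), after quantile normalization *Myl3* (0.122), without mitochondrially encoded and haemoglobin genes *Myl7* (-0.024), and with arrayWeights *Myh6* (0.004) and *Myl4* (0.222). In homozygous against heterozygous they were *Myl7* after median-ratio scaling (-0.004), *Myl1* (0.025) and *Myl4* (0.039) after quantile normalization, *Myl1* (0.275) and *Myl4* (0.259) with arrayWeights, and *Myl1* (0.289) and *Myl4* (0.275) with sex as a covariate. In heterozygous against wild type they were *Myl1* (-0.066), *Myl3* (-0.15) and *Mylk3* (-0.031) after median-ratio scaling, *Myl2* (0.287) and *Myl7* (0.033) after quantile normalization, *Myl3* (-0.025) without mitochondrially encoded and haemoglobin genes, *Myl2* (0.017) with arrayWeights, and *Myl1* (-0.198) and *Myl3* (-0.009) with sex as a covariate.

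Leaving out 1 library at a time gave 13 to 2170 called genes in homozygous against wild type, 1 to 6 in homozygous against heterozygous and 1 to 6 in heterozygous against wild type, with 0 members called. The highest count, 2170, was without wild-type replicate 3, and 247 were called without homozygous replicate 3. Log2 changes of homozygous against wild type ran from -0.358 to 0.012 for *Myh6*, -0.126 to 0.47 for *Myl1*, -0.281 to 0.278 for *Myl4* and -0.174 to 0.422 for *Myl7*, the upper ends being without homozygous replicate 3. Those of homozygous against heterozygous ran from -0.228 to 0.003 for *Myh7*, -0.224 to 0.372 for *Myl1*, -0.236 to 0.323 for *Myl4*, -0.129 to 0.467 for *Myl7* and -0.041 to 0.27 for *Mylk3*. Those of heterozygous against wild type ran from -0.001 to 0.214 for *Myl1*, -0.02 to 0.071 for *Myl3*, -0.125 to 0.025 for *Myl4*, -0.051 to 0.013 for *Myl2* and -0.154 to 0.072 for *Myl7*. The *Myh6*/*Myh7*, heavy to regulatory and essential to regulatory ratios kept their direction in each comparison. *Myl4*/*Myl3* ran from -0.1 to 0.342 in homozygous against wild type, -0.04 to 0.401 in homozygous against heterozygous and -0.18 to 0.039 in heterozygous against wild type. *Myl7*/*Myl2* ran from -0.162 to 0.081 and *Myh7b*/*Myh7* from -0.237 to 0.032 in heterozygous against wild type, and *Myl1*/*Myl3* from -0.036 to 0.195 in that comparison and -0.028 to 0.45 in homozygous against heterozygous.

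An alternative added after seeing the data left out the 3 libraries richest in other organs' transcripts (wild-type 1, heterozygous 1 and homozygous 3). It gave 11 called genes in homozygous against wild type, 6 in homozygous against heterozygous and 5 in heterozygous against wild type, with 0 members. *Myl4* was then at 0.343 in homozygous against wild type, *Myl1* at 0.47 and *Myl4* at 0.403 in homozygous against heterozygous, and *Myl3* at -0.009 in heterozygous against wild type, where *Myl7*/*Myl2* was 0.031 and *Myh7b*/*Myh7* 0.066.

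With 3 libraries per group and no read depth, the median standard error over the members was 0.17 on the log2 scale, and the exact permutation tests of ratios could not give a p below 0.1.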
